A study of Mus musculus with 15 samples.

Results

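The baseline transcriptome of mouse endometrial epithelial organoids was described from the 3 control + vehicle samples of a series of 15 samples. The 3 samples were chosen by their labels alone, and no other sample entered any value below. Each sample came from a different female mouse with the genotype Smad2flox/flox; Smad3flox/flox and no Cre, so both genes carried loxP sites and were not deleted. The organoids were treated with DMSO, the vehicle, and are named replicates 1, 2 and 3. Epithelial sheets were separated from the uterus with trypsin, dissociated and grown in Matrigel, a basement membrane extract, in medium with EGF, FGF-10, HGF and conditioned media of WNT3A, R-spondin and Noggin, without vitamin A in the B-27 supplement. The samples are thus a culture of cells that grew in this medium after the epithelium was separated from the rest of the uterus. The donors were adults of mixed ancestry from the strains 129S5/SvEvBrd and C57BL/6J. Estradiol at weaning is described for inducing the Cre line used elsewhere in the series, and whether the donors of these control organoids received it is not stated in the sources used here.

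The uterine epithelium derives from the Mullerian duct and forms a luminal sheet that faces the uterine cavity, with glands that reach into the stroma. It responds to estrogen through ESR1 and to progesterone through PGR. It secretes antimicrobial proteins, protease inhibitors and iron-binding proteins into the uterine fluid, and gland cells depend on the transcription factor FOXA2. Organoids are cystic or budding structures that dissociated epithelial cells form in gel.

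The table held 16729 genes, of which 13070 (78.1%) had a normalized count above 3 in all 3 samples, 1567 were at 3 or less in all of them and 534 were listed at 0 in all of them. The normalized counts of a sample summed to 22489489, 20241771 and 20758938 in replicates 1 to 3. To compare genes, each normalized count was divided by transcript length and scaled to a sum of 1000000 per sample, which is called the level below and given in parts per 1000000 (ppm). A level of 10000 ppm is thus 1% of the sum, and 16697 genes with a known length were ranked by their mean level. The highest 10 genes of each sample held 13.6%, 11.5% and 11.02% of the sum of levels in replicates 1, 2 and 3, and the highest 100 held 32.8%, 29.9% and 30.6%. By the mean level over the samples, 415 genes held 50% of the sum, and the median of all ranked genes was 8.33 ppm. Mitochondrially encoded genes, 13 in number, held 1.46%, 1.99% and 1.06% of the levels, and 99 ribosomal protein genes held 5.12%, 3.78% and 4.90%. The mitochondrial shares leave out near-identical copies on nuclear chromosomes, such as Gm29216 at 2593, 4071 and 2440 ppm.

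The labelled cell type was checked against 6 uterine epithelial markers, all of which were detected in all 3 samples. Keratins 18 and 8, the paired intermediate filament proteins of simple epithelia, ranked 23 and 35. The level of Krt18 was 3894, 3184 and 3115 ppm in replicates 1 to 3 (3397 ± 431, SD, n = 3), and that of Krt8 was 2689, 2339 and 2023 ppm (2351 ± 333, SD, n = 3). Pax8, a transcription factor of the Mullerian duct, ranked 939 at 187, 216 and 179 ppm. Esr1, the estrogen receptor, ranked 2856 at 45.8, 65.5 and 69.5 ppm. Pgr, the progesterone receptor, ranked 7713 at 7.37, 12.2 and 12.5 ppm, which lies near the median gene. Foxa2 ranked 8420 at 10.1, 4.65 and 9.47 ppm, with normalized counts of 244, 93.9 and 200.2. The ranges of level over the 3 samples did not overlap between Krt18 and Krt8, Krt8 and Pax8, Pax8 and Esr1 or Esr1 and Pgr. The order of these levels was thus the same in every sample, while Pgr and Foxa2 overlapped. That of Krt18 and Krt8 rests on the division by length. Their normalized counts overlapped, at 63632, 43391 and 44466 for Krt18 and 59890, 43440 and 39349 for Krt8.

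**Figure D1:**
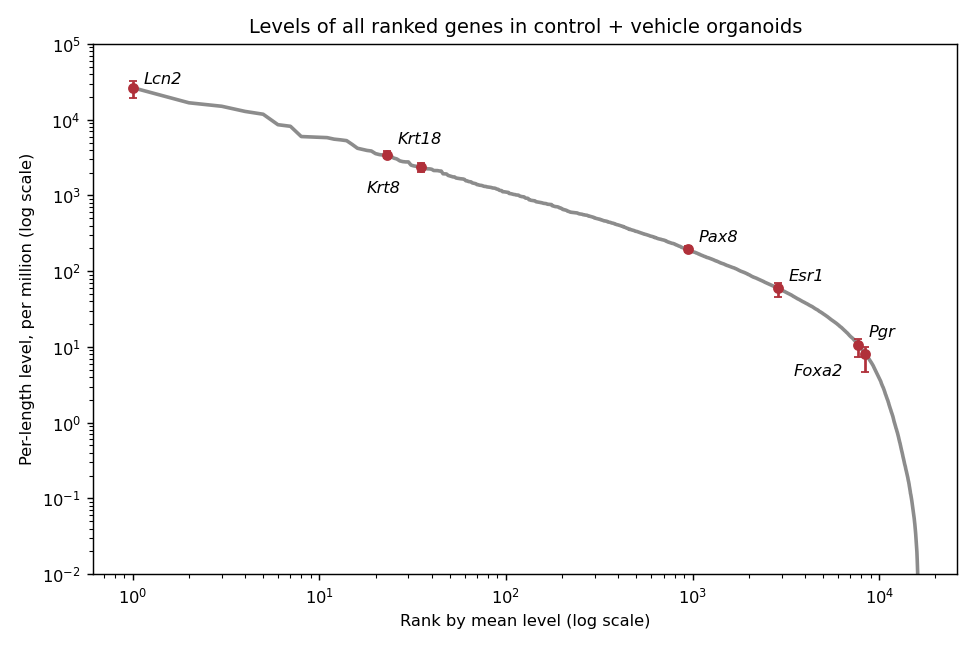
Mean per-length level (ppm, log scale) of every ranked gene with a level above 0 against its rank (log scale), with Lcn2 and the 6 uterine epithelial markers as points whose bars span the lowest and highest of the 3 samples. Krt18 and Krt8 sit near the top of the curve at ranks 23 and 35, Pax8 and Esr1 in its middle, and Pgr and Foxa2 close to the median level of 8.33 ppm; levels under 0.01 are below the axis.

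Of the 30 most abundant genes 7 were on the list of secreted and luminal fluid proteins, and 4 of these led the ranking. Lcn2, lipocalin 2, a secreted protein that binds iron-carrying siderophores, was the highest gene of all at 32243, 27776 and 19492 ppm (26504 ± 6470, SD, n = 3). Ltf, lactotransferrin, an iron-binding and estrogen-responsive protein of uterine fluid whose promoter drives the Cre line of the series, was next at 19247, 16491 and 14465 ppm (16734 ± 2400, SD, n = 3). Lcn2 and Ltf were each highest in replicate 1 and lowest in replicate 3. Their ranges did not overlap, since the lowest Lcn2 level was 19492 and the highest Ltf level 19247 ppm. This order rests on the division by length, since the normalized counts of Ltf (600426, 429014 and 394181) were above those of Lcn2 (335526, 241038 and 177188) in every sample. Sprr2f, a small proline-rich protein of the cell envelope that estrogen induces in the uterus, ranked 3 at 14265, 17224 and 13658 ppm. Spp1, osteopontin, a secreted integrin ligand, ranked 4 at 12048, 8684 and 17885 ppm, the highest value being that of replicate 3. Prap1, a proline-rich acidic secreted protein, ranked 5 at 18557, 12017 and 4874 ppm and had the widest range of the 10 highest genes. These 5 genes together held 8.30% of the sum of mean levels.

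The next 5 genes were Ftl1, the ferritin light chain that stores iron (8594 ± 962 ppm, SD, n = 3), Ly6a, the cell surface protein Sca-1 (8188 ± 799), Clu, the secreted chaperone clusterin (5995 ± 2253), Gsto1, a glutathione transferase (5925 ± 616), and Anxa2, a membrane-binding annexin (5856 ± 474). Clu fell into the same order as Lcn2 and Ltf, with 8349, 5778 and 3859 ppm in replicates 1 to 3. Anxa2 varied little, with 6327, 5378 and 5863 ppm. Ftl1 shares 80.6% of its 31-base words with other genes of the table, so its level depends on how the quantification divided reads among near-identical copies.

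Ranks 11 to 30 held further secreted proteins beside genes that most cells use. Pglyrp1, a secreted peptidoglycan recognition protein, had 3988, 3090 and 9185 ppm and was far higher in replicate 3 than in the others. Cfb (4717 ± 717 ppm, SD, n = 3) and C3 (3861 ± 840.1) encode complement factor B and complement component 3 of the alternative pathway. Cfb shares 81.5% of its words with other genes of the table. Wfdc2, a secreted protein with whey acidic protein domains, was at 3931 ± 659 ppm. Fth1, the ferritin heavy chain, was at 4056 ± 720.4 ppm, so that both ferritin chains, Lcn2 and Ltf, 4 genes of iron storage or binding, were among the 17 highest. Gpx1, an antioxidant selenoprotein, was at 5436, 3679 and 6756 ppm. Sat1, an enzyme of polyamine breakdown (3117 ± 217 ppm), Fam213a, a redox protein (5537 ± 346), F3, tissue factor that starts coagulation (2773 ± 759), and Plet1, a surface protein of epithelial progenitors (2771 ± 259.5), were also among the 30. The others were S100a11, Actb, Actg1, Tmsb4x, Krt18, Eef1a1, Ppia, mt-Co2, mt-Co3 and Gm29216, a mitochondrial-like copy on a nuclear chromosome of which 97.2% of words occur in other genes.

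Adjacent genes in this order were mostly not separated by the 3 samples. Of the 29 adjacent pairs among the 30 highest genes, 28 had overlapping ranges of level, and the pair that did not overlap was Lcn2 and Ltf. Each sample's own 30 highest genes held 28, 28 and 25 of these 30 in replicates 1, 2 and 3.

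**Figure D2:**
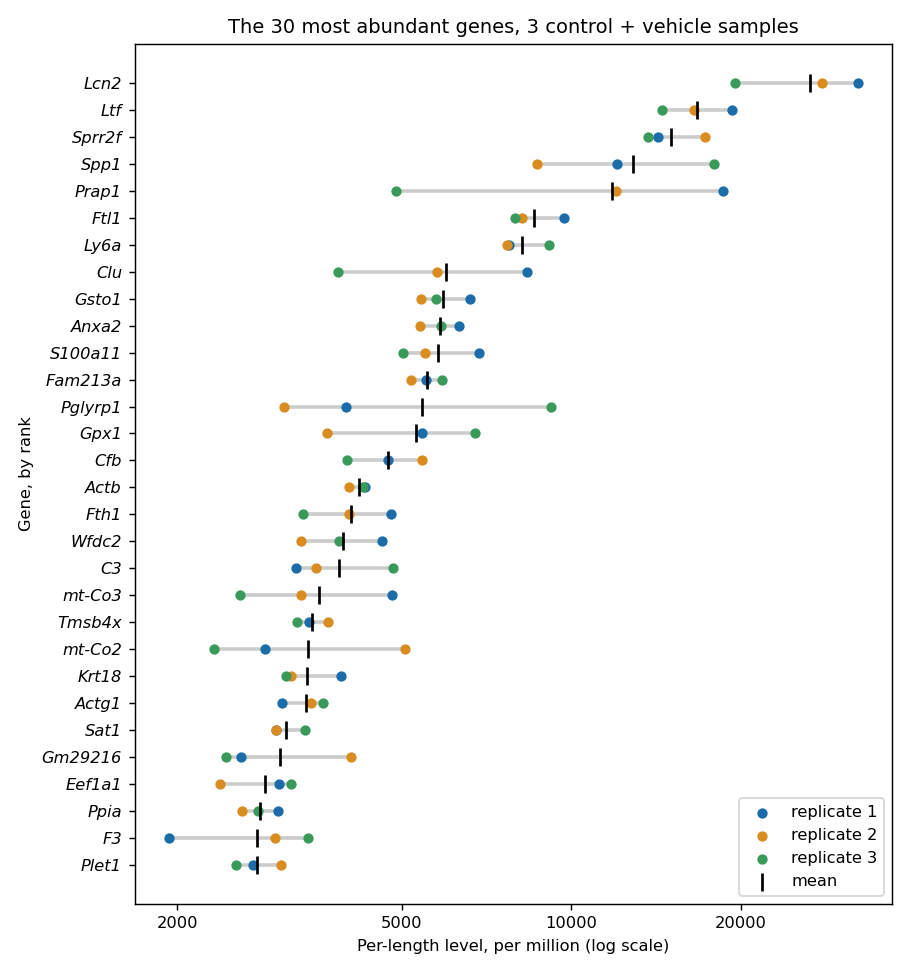
Per-length level (ppm, log scale) of the 30 most abundant genes in each of the 3 control + vehicle samples, with the mean as a black tick and a grey bar from the lowest to the highest sample. Lcn2 leads with 19492 to 32243 ppm; Prap1, Pglyrp1 and Clu have wide bars, and Actb and Tmsb4x narrow ones.

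The proximal promoters of the 6 highest genes are shown because these genes lead the ranking and differ in whether a TATA-like element lies just before the start. The sequences are the 80 bases before the RefSeq start on GRCm38.p6, 5′ to 3′ on the transcribed strand, with ATAAA in capitals where it lies 45 to 16 bases before the start.
Lcn2, chr2:32387740-32387819, minus strand: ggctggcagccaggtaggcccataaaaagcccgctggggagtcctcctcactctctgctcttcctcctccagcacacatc
Ltf, chr9:111019212-111019291, plus strand: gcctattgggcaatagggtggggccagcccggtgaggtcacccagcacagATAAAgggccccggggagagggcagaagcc
Sprr2f, chr3:92365107-92365186, plus strand: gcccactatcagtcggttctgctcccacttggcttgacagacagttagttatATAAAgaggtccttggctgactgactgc
Spp1, chr5:104435031-104435110, plus strand: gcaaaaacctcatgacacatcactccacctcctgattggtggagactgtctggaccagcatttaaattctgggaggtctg
Prap1, chr7:140093316-140093395, plus strand: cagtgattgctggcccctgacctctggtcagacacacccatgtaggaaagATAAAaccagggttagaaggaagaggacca
Ftl1, chr7:45459887-45459966, minus strand: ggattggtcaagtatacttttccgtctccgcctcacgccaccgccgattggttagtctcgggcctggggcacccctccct

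ATAAA, part of the TATA element where the general transcription machinery binds, began 30, 28 and 30 bases before the start in Ltf, Sprr2f and Prap1. In Lcn2 it began 59 bases before the annotated start, outside the stretch searched. Spp1, of whose 2 windows the first in the table is shown, and Ftl1 had none in these 80 bases. The 250 bases before the start held 3, 4, 2, 3 and 2 CG pairs in Lcn2, Ltf, Sprr2f, Spp1 and Prap1 and 17 in Ftl1, the only one of the 6 that most cells use.

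Of the 30 most abundant genes, 22 matched a RefSeq promoter by symbol, with 25 windows. ATAAA at 45 to 16 bases before the start, on the transcribed strand, was in 24% of these 25 windows, in 13.6% of 88 windows of the 100 most abundant genes, in 4.46% of 941 windows of the 1000 most abundant, in 7.35% of 884 windows of genes at 3 or less in all 3 samples and in 4.83% of all 32851 windows. On the other strand it was in 2.27% of the windows of the 100 most abundant genes and in 2.72% of all windows. TATAAA, which contains ATAAA, was in 9.09% and 2.14% of these on the transcribed strand and in 1.14% and 0.737% on the other. The palindromic estrogen response element was in 0 of the 88 windows within 250 bases and in 21 of all windows. TGANTCA, the AP-1 site, which reads alike on both strands, was in 12.5% of the 88 windows and in 6.75% of all. A match is a description of letters in the window, and genes with 2 or more windows count more than once.

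Genes of epithelial junctions and identity were detected throughout, at levels from 11.1 ppm for Dsp, a desmosome protein, to 2394 ppm for Krt7. All 20 on the list were detected in all 3 samples, all 20 lay above the median of all ranked genes, and their median level was 215 ppm beside 8.33 for all ranked genes. Krt7 (2394 ± 137 ppm, SD, n = 3) and Krt19 (2133 ± 589.8), further keratins of simple epithelia, led the list. Cldn7, a tight junction claudin, had 1348, 1320 and 1280 ppm, and Epcam, an epithelial adhesion molecule, 1094, 1116 and 1127. Elf3, an epithelial transcription factor, was at 642 ± 76.5 ppm, and Muc1, the transmembrane mucin of the apical surface, at 555 ± 41.6. Cdh1, E-cadherin, was at 216, 345 and 493 ppm and so varied more than Cldn7 or Epcam.

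The level was unevenly divided within the keratin, claudin and cathepsin families. Among 38 measured keratins 24 were detected, and the mean levels of Krt18, Krt7, Krt8 and Krt19 each exceeded 2000 ppm. The next keratin, Krt87, was at 151, 101 and 499 ppm, and its range did not overlap that of Krt19. Krt4 (225 ± 92.9 ppm) and Krt20 (165 ± 40.5) followed. Krt5 and Krt14, the keratin pair of basal cells, were near the floor, with Krt14 at normalized counts of 16.2, 4.84 and 21.1 and Krt5 at 0, 1.84 and 0. Other keratins of stratified epithelia lay closer to the median gene, with Krt17 at 4.62, 11.4 and 3.00 ppm, Krt6b at 5.46, 5.96 and 7.68 ppm and Krt6a at 2.51, 6.17 and 9.23 ppm. Of 13 claudins, Cldn7 led with 1316 ± 33.96 ppm, ahead of Cldn3 (459 ± 2.92) and Cldn10 (458 ± 37.1), whose ranges overlapped each other and not that of Cldn7. Of 13 cathepsins, the lysosomal proteases Ctsd (2459 ± 405 ppm) and Ctsb (2135 ± 562) led, followed by Ctsl (1029 ± 247), Ctsc (622 ± 109), Ctsh (548 ± 89.8) and Ctsz (497 ± 61.2).

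The list of secreted and luminal fluid proteins, which also holds the cell envelope protein Sprr2f and the receptor Pigr, took a large share of the transcriptome. The 30 measured genes on the list of secreted and luminal fluid proteins together held 10.5%, 9.29% and 8.73% of the sum of levels, and 29 of the 30 were detected in all 3 samples. Their median level was 298 ppm beside 8.33 for all ranked genes, and 7 of them were among the 30 most abundant genes. Beside those given above, Cp, the copper-binding ceruloplasmin that oxidises iron, was at 1280, 1367 and 1065 ppm. Slpi, a secreted inhibitor of leukocyte protease, was at 677, 359 and 239.9 ppm. Pigr, the receptor that carries polymeric immunoglobulins across epithelia, had normalized counts of 11422, 8411 and 6432. Cxcl15, a chemokine of uterine glands and lung, was near the floor, with normalized counts of 7.84, 2.61 and 17.3. Of 7 measured mucins 3 were detected; Muc1 and Muc20 (138 ± 29.1 ppm) were high and the others were at or below 1 ppm; Muc15 was at 3 or less in all 3 samples.

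The luminal and gland marker lists each mixed high and low members, and their order depended on the measure. The median member was higher in the luminal list, while the summed level was higher in the gland list in every sample, at 687, 913 and 635 ppm beside 652, 704 and 538 ppm. The order of the sums rests on the division by length. Summed normalized counts were higher in the luminal list, at 18684, 16978 and 13178 beside 15456, 16773 and 12666. All 11 measured luminal genes were detected, with a median level of 12.4 ppm beside 8.33 for all ranked genes, and 6 lay above the latter. Areg (mean 4.47 ppm), Calb1 (2.84), Ihh (1.98), Krt13 (1.90) and Lpar3 (0.951) lay below it. Wnt7b and Wnt7a, WNT ligands of the luminal epithelium, were at 195.4 ± 35.5 and 56.7 ± 18.9 ppm, and Hbegf, an EGF family ligand of implantation, at 79.8 ± 8.24. Msx1, a homeobox factor of the receptive uterus, was at 89.8 ± 28.7 ppm. Of 11 measured gland genes, 6 were detected, and their median level was 0.872 ppm. Gpx3, a secreted glutathione peroxidase, led with 606 ± 132 ppm, followed by Sox9 (63.8 ± 2.17), Lif, the implantation cytokine (37.02 ± 11.2), and Aldh1a1, a retinaldehyde dehydrogenase of gland crypts (28.5 ± 16.3). The implantation serine proteases Prss28 and Prss29 were listed at 0 in all 3 samples. Ranges of members did overlap between the lists, and as these are bulk samples, fewer cells of a type and less RNA per cell cannot be told apart.

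**Figure D3:**
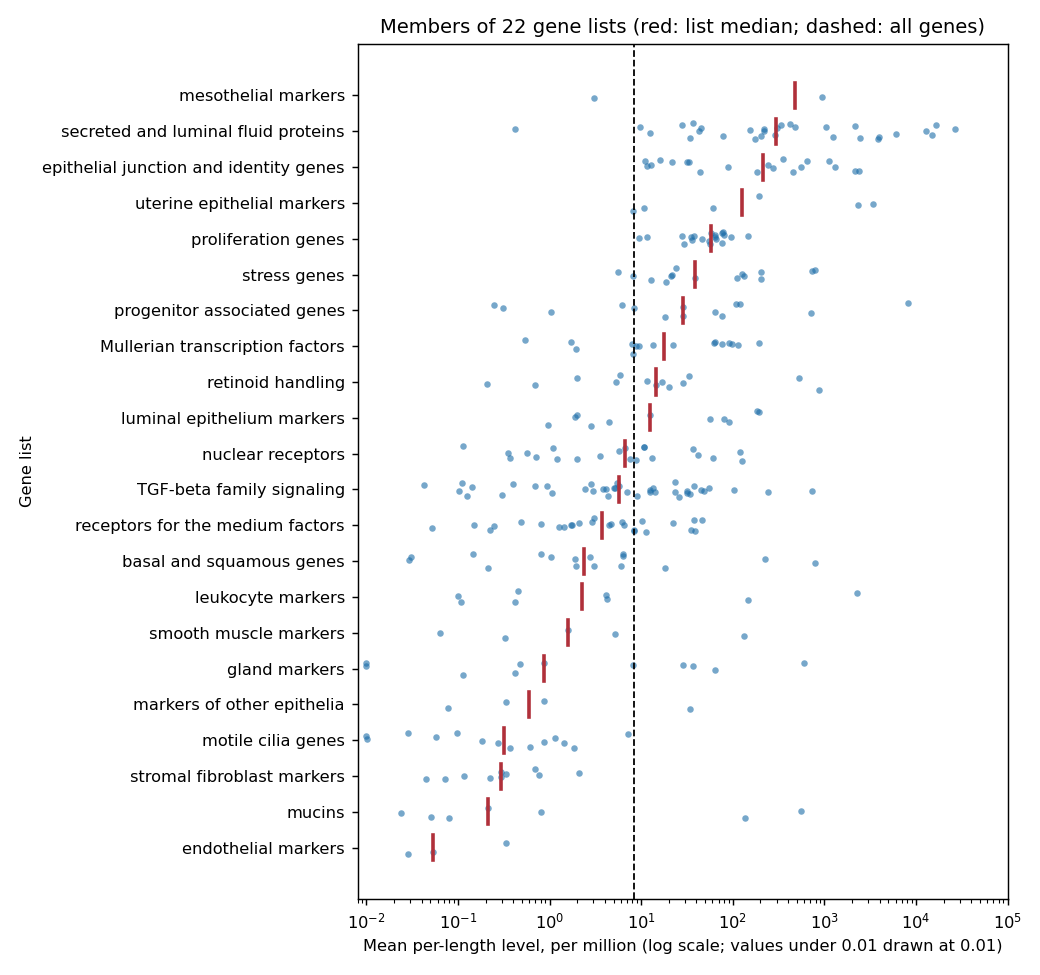
Mean per-length level (ppm, log scale) over the 3 samples for the measured members of 22 gene lists, each dot a gene, with the median of each list in red and the median of all ranked genes as a dashed line at 8.33. All but 1 of the secreted proteins and all epithelial junction genes lie to the right of the dashed line and endothelial, stromal and cilia genes to its left; mesothelial markers have only 2 measured members.

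Transcription factors of the Mullerian tract were present at moderate levels. Of 26 listed, all 16 measured members were detected, with a median of 17.9 ppm. The other 10, most of them homeobox genes such as Hoxa10 and Hoxa11, had no value in these data, so no level can be given. After Pax8, the highest were Dlx5 (114 ± 22.2 ppm, SD, n = 3), Sox17 (97.1 ± 9.803), Msx1, Klf5 (76.1 ± 6.43) and Sox9. Among 10 Hox genes in the table, Hoxb7 led with 72.9, 84.2 and 92.5 ppm, followed by Hoxb6 (29.3 ± 4.72) and Hoxb2 (19.3 ± 2.05). Foxa1, a pioneer factor, varied among the samples, with normalized counts of 159.7, 178 and 576, the highest in replicate 3.

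The receptors for the factors in the medium were modest in level. Of 26 receptors, 23 were detected in all 3 samples, with a median of 3.72 ppm, below the 8.33 of all ranked genes. Erbb2 (46.2 ± 8.63 ppm) and Erbb3 (38.5 ± 8.96), partners of the EGF receptor, were higher than Egfr itself (8.01, 8.39 and 8.64 ppm). Fgfr2, which binds FGF-10, was at 37.5 ± 5.33 ppm, and Met, the HGF receptor, at 35.4 ± 11.02. Among 10 frizzled receptors, Fzd6 led with 19.8, 27.6 and 19.1 ppm, ahead of Fzd1 (11.2 ± 2.81), and the others were lower still, from Fzd10 at 6.5 ppm down. Lgr4, the broad R-spondin receptor, had normalized counts of 567, 611 and 122, lower in replicate 3. Lgr5, the R-spondin receptor of many stem cells, was near the floor with 13.6, 21.4 and 0, and Axin2, a WNT target, had 11.3, 24.3 and 4.28. Of 14 progenitor associated genes 13 were detected, and the highest were surface proteins, Ly6a as above and Prom1, prominin 1, at 670.1, 474 and 976 ppm.

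TGF-beta family genes were also mostly modest, with 32 of 39 measured members detected and a median of 5.73 ppm. Their summed mean level was 1543 ppm, and 2358 ppm with no division by length. Ccn2, a matricellular target of TGF-beta, ranked 179 at 765, 987 and 435 ppm, and Gdf15, a divergent family ligand, ranked 741 at 243 ± 36.6. Of the receptors, Tgfbr2 was at 98.6, 123 and 84.8 ppm and Tgfbr1, its signaling partner, at 12.4 ± 4.46, so that their ranges did not overlap. Of the SMADs, Smad4, the common partner, was at 55.3 ± 10.01 ppm, Smad1, of the BMP branch, at 44.6 ± 7.51, Smad3 at 26.5, 36.1 and 31.6 and Smad2 at 14.5, 14.8 and 13. The 2 genes that carry loxP sites in these mice were thus expressed in every sample, the level of Smad3 above that of Smad2 without overlap. That order is one of levels divided by length and depends on the lengths used. Inhba, a subunit of activin, was lower in replicate 1, with normalized counts of 70.3, 234 and 259.7.

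Of 21 measured nuclear receptors 20 were detected. Nr2f6 (125 ± 9.995 ppm), an orphan receptor, and Nr1h2 (119 ± 4.71), a receptor for oxysterols, led, followed by Esr1. Rara and Rarg, receptors for retinoic acid, were at 13.1 ± 2.72 and 10.8 ± 2.27 ppm. Of 13 measured retinoid handling genes 12 were detected, and Fabp5, a fatty acid and retinoic acid carrier (869.9 ± 107 ppm), and Rdh10, which oxidises retinol (532 ± 63.1), were far above the rest. The retinaldehyde dehydrogenases were Aldh1a2 (33.5 ± 12.2), Aldh1a1 (28.5 ± 16.3) and, below the list's median of 14.7 ppm, Aldh1a3 (11.7 ± 6.68), and Aldh1a1 overlapped both others in range while Aldh1a2 and Aldh1a3 did not overlap. Aldh1a1 was lower in replicate 3, with normalized counts of 1050, 815 and 229, and Aldh1a3 lower in replicate 1, with 158, 475 and 562.

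The organoids expressed the genes of dividing cells. All 20 proliferation genes were detected and all 20 lay above the median of all ranked genes, with a median of 57.2 ppm. Ccnd1, cyclin D1, led with 181, 88.5 and 166 ppm, and Pcna, the sliding clamp of replication, had 95.1, 98.02 and 95.5. Mki67 had normalized counts of 699.6, 692 and 1466, higher in replicate 3. Of the stress genes all 15 were detected, led by Xbp1 (683, 744 and 968 ppm) and Hspa5 (732 ± 47.4) of the endoplasmic reticulum response to unfolded proteins.

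Markers of other cell types were at or near the floor, with a few exceptions. Of 14 measured motile cilia genes 7 were detected, their levels summed to between 8.37 and 20.3 ppm, and Foxj1, the master regulator of motile cilia, had normalized counts of 9.57, 15.4 and 4.39. Of 10 measured stromal fibroblast markers 4 were detected and their levels summed to between 1.76 and 7.17 ppm, with Pdgfra at 11.9, 21.4 and 13.3 normalized counts, Col1a1 at 15.4, 34.7 and 2.65 and Vim at 15.8, 2.85 and 5.196. Of 6 with a mean of at least 10, 5 (Twist1, Col1a2, Dcn, Col3a1 and Col1a1) were at least 1.5 times lower in replicate 3 than in both others, beside 8.07% of all genes with such a mean, and 4 were that far higher in replicate 2, beside 5.07%. In the lowest range of means, from 10 to 30, 70% of all genes differed at least 2-fold among the samples. Of 3 measured endothelial markers 1 was detected, and the list summed to between 0.235 and 0.504 ppm. Of 8 measured leukocyte markers 6 were detected, and the summed level of 2140 to 2718 ppm lay almost wholly in Cd14, a lipopolysaccharide co-receptor (2247 ± 324 ppm), and Cd68 (147 ± 51.4). Ptprc, the pan-leukocyte marker CD45, had normalized counts of 12.5, 17.4 and 38.5, Itgam 8.07, 13.2 and 37.6 and Csf1r 166, 57.99 and 384, each highest in replicate 3.

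Of 5 measured smooth muscle markers 3 were detected, their levels summed to between 91.9 and 176 ppm, and nearly all of that was Smtn, smoothelin (131 ± 40.6). Of the basal and squamous list 12 of 16 were detected and the levels summed to between 821 and 1425 ppm. That sum lay mostly in Sprr1a, a cornified envelope protein (442, 725 and 1191 ppm), and Krt4, while Trp63, the basal cell regulator, had normalized counts of 0, 0 and 4.91. Both measured mesothelial markers were detected, Msln, mesothelin, at 811, 1518 and 493 ppm and Upk3b at normalized counts of 194.9, 128 and 20.4. Of 4 measured markers of other epithelia 3 were detected, and the sum of 15.0 to 62.5 ppm was mostly Ovgp1, oviductin, with normalized counts of 405, 708 and 1596. The part of any such cells in the other levels was not tested.

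The 3 samples were alike across genes but not equally so. Over 12952 genes with a mean normalized count of at least 10, the correlation of log2(normalized count + 1) across genes was r = 0.959 between replicates 1 and 2, 0.933 between 1 and 3 and 0.937 between 2 and 3. Genes are not independent replicates, and these values are descriptions. In 2811 of these genes, or 21.7%, the highest sample was at least 2 times the lowest, each with 1 added. The share fell with the level, from 70.0% of 1120 genes with a mean from 10 to 30 to 5.74% of 3034 genes with a mean from 1000 to 3000, and was 12.5% of the 263 genes with a mean of 10000 or more. Replicate 3 lay at least 1.5 times above both others in 945 genes (7.3%) and at least 1.5 times below both in 1045 (8.07%). For replicate 1 these counts were 558 (4.31%) and 859 (6.63%), and for replicate 2 they were 657 (5.07%) and 628 (4.85%).

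The widest ranges among genes with a mean of at least 100 belonged mostly to near-identical copies of abundant genes. Gm13394, which shares 96.8% of its 31-base words with Gapdh, had normalized counts of 69.9, 45.8 and 57532. Gm10359, all of whose words occur in Gapdh, had 16192, 6077 and 0. Gapdh itself had 43742, 33329 and 33372, and the sum of Gapdh and its 39 copies in the table was 62048, 40471 and 93252. So Gapdh alone was highest in replicate 1, and with its copies it was highest in replicate 3. Rps3a2 had 6.57, 1.79 and 4883 and Rps3a3 6.56, 5.34 and 1982, while Rps3a1, the gene they resemble, had 8900, 6886 and 701. The sum of Rps3a1 and its 4 copies was 8917, 6897 and 7572, a ratio of highest to lowest of 1.29 where Rps3a1 alone had 12.7.

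Of the 12 genes with the widest ranges, 10 shared at least 50% of their words with 1 other gene that had a higher mean count. Beside the 4 above these were Gm13835 (a copy of Psma3), Rpl15-ps3, Rpl3-ps1, Gm12918 (Rpl13), Gm13443 (Glo1) and Rps12-ps3. Serpina1e, an alpha-1-antitrypsin gene of a clustered family, had 6367, 6200 and 11.5 normalized counts and shares 52.6% of its words with other genes, none of which alone holds 50%. Kcnk12, a potassium channel with no such relative, had 401, 316 and 0. Among all 41 genes of this abundance with a range of 10 times or more, 19 (46.3%) shared at least 50% of their words with other genes, beside 4.55% of the 10359 genes of this abundance that have such words.

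**Figure D4:**
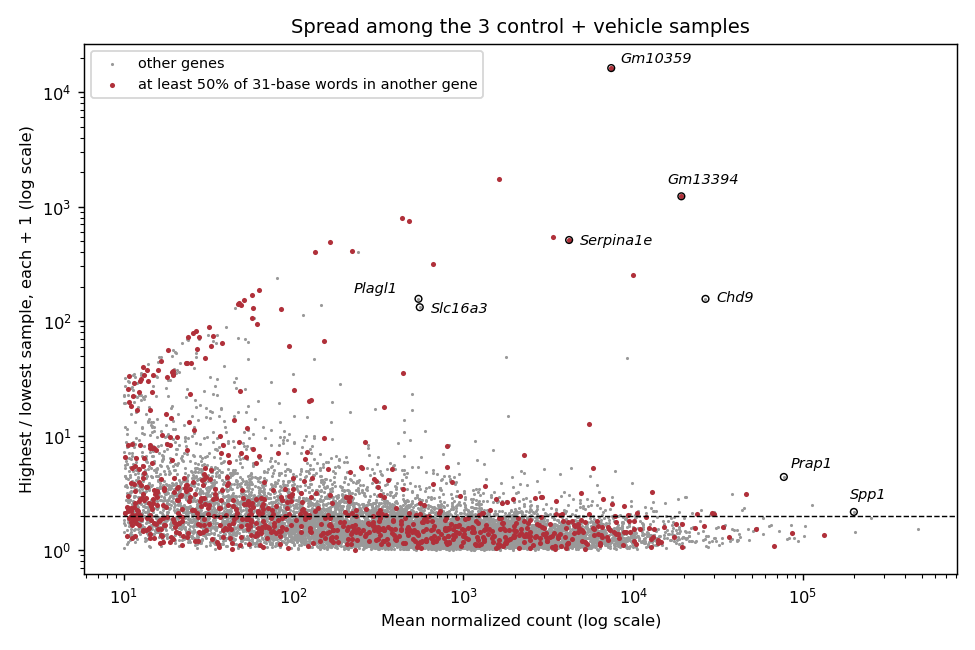
Ratio of the highest to the lowest of the 3 samples (each normalized count + 1, log scale) against the mean normalized count (log scale) for 12952 genes, with genes that share at least 50% of their 31-base words with another gene in red and a dashed line at a ratio of 2. The ratio narrows as the mean rises, and several of the widest ratios at high means are red; named genes are ringed.

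Apart from such copies, groups of related genes differed in replicate 3. Some enzymes of glycolysis, the breakdown of glucose to pyruvate and lactate, were higher there; this list was drawn up after the values had been seen and supports nothing beyond its counts. Of 14 enzymes, 7 (Ldha, Eno1, Aldoa, Pkm, Tpi1, Pfkl and Pfkp) were at least 1.5 times above both other samples, beside 7.3% of all genes with a mean of at least 10, and 0 were that far below. Pfkl, a phosphofructokinase, had normalized counts of 3776, 3576 and 11617, and Tpi1, triose phosphate isomerase, 14293, 10699 and 29909. Ldha, lactate dehydrogenase A, had 39433, 28521 and 66985. Eno1, enolase, had 33006, 25827 and 79619, and with its 2 measured copies 50929, 39000 and 79706, so that its ratio of highest to lowest fell from 3.08 to 2.04. The other 7 enzymes, Gapdh, Pfkm, Hk2 and Pgam1 among them, were not that far above, and Gapdh alone was highest in replicate 1. Summed with its copies, Gapdh was highest in replicate 3, at 62048, 40471 and 93252.

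Among carriers of glucose and lactate and genes often studied with them, 7 of 10 were at least 1.5 times higher in replicate 3 than in both others. This compares with 7.3% of all genes with a mean of at least 10. This list, too, was drawn up after the values had been seen and supports nothing beyond its counts. Slc16a3, the lactate exporter MCT4, had normalized counts of 11.1, 53.7 and 1594, and Slc2a1, the glucose carrier GLUT1, 5023, 4289 and 7711. Pdk1 (417, 438 and 1952), Bnip3 (382, 361 and 1469), Ak4 (146, 129 and 1186), Hif1a (6064, 6748 and 12194) and Vegfa (1060, 1170 and 2071) were the others. Car9, Ndrg1 and Egln3, also often studied with them, were not, with Car9 at 148, 225 and 173.

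Chemokines, a family picked after the values had been seen, went the other way. Of 13 chemokines of the CXC and CC families with a mean of at least 10, 8 were at least 1.5 times lower in replicate 3 than in both others, beside 8.07% of all such genes, and 0 were that far above. Cxcl5, which attracts neutrophils, had normalized counts of 11829, 9134 and 2400, Cxcl1 2771, 2924 and 773 and Ccl20, which attracts cells with CCR6, 6709, 4838 and 1278. Cxcl16 (10656, 8465 and 6519) and Cxcl14 (657, 434 and 516) were not that far below. In the secreted list as a whole, 6 of 29 genes were lower in replicate 3 by that measure, beside 8.07% of all such genes. These were Cxcl5, Ccl20, Cxcl1, Cxcl17, Spink12 and Olfm4. Another 3 (Csf1, Olfm1 and Ovgp1) were that far above, beside 7.3%, as were 3 in replicate 1, beside 4.31%. Replicate 3 also had the lowest share of mitochondrially encoded genes (1.06%) and the highest Ptprc, Itgam and Csf1r of the 3 samples, whose part in these differences was not tested. Each difference of replicate 3 rests on 1 mouse and 1 library, which cannot be told apart.

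S100 proteins are small calcium-binding proteins, and this family too was picked after the values had been seen. Of 12 with a mean of at least 10, 8 were at least 1.5 times higher in replicate 1 than in both others, beside 4.31% of all such genes. By the same measure 1 was below both others in replicate 1, beside 6.63%, and 3 in replicate 3, beside 8.07%. S100a6 had 25816, 13285 and 13129 normalized counts and S100a10, the partner of Anxa2, 5720, 3421 and 2674.

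**Figure D5:**
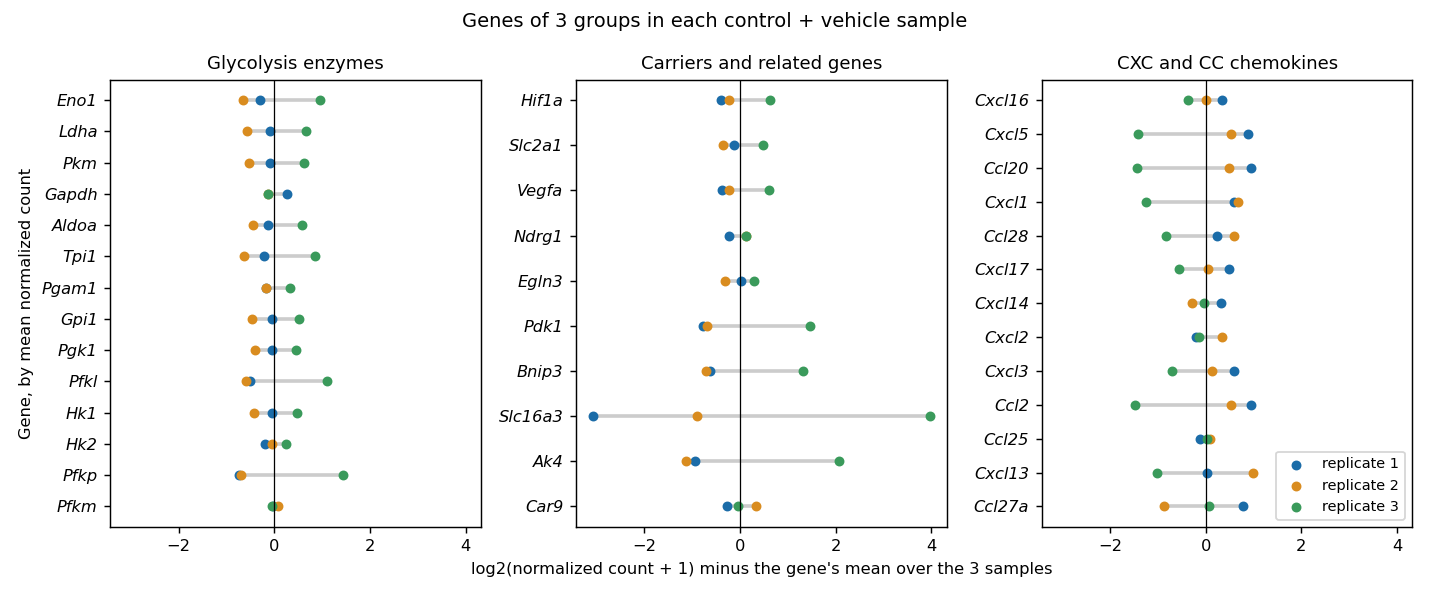
Normalized counts of 14 glycolysis enzymes, 10 carriers and related genes and 13 chemokines with a mean of at least 10, as log2(normalized count + 1) minus the gene's mean over the 3 control + vehicle samples, with a grey bar from the lowest to the highest sample. Replicate 3 lies to the right for most enzymes and carriers and to the left for most chemokines. Gapdh, drawn without its copies, Pfkm, Car9, Cxcl2 and Ccl25 do not follow.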

How the data were processed

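RNA of organoids was made into SMART-Seq v4 ultra-low input libraries and sequenced as paired reads. Per the methods and the submitters' processing notes, quantification used Salmon 1.4.0 and GRCm39, and normalization used DESeq2 1.32.0. The deposited signal values are thus estimated read numbers that the authors normalized between samples. Whether transcript lengths entered this normalization is not stated in the sources used here. Only the 3 control + vehicle samples of 15 were used. The methods give a nominal read number common to all samples, but the reads behind each value could not be recovered, since at most 30.8% of values below 40 lay within 0.05 of a whole multiple of 1 step, and no counting interval is given.

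Values were analysed with Python 3.11.15, pandas 2.3.3 and numpy 2.4.6 and drawn with matplotlib 3.10.9. Lengths were those of the longest protein-coding transcript, or else the longest transcript, in a GENCODE annotation on GRCm38, which is not the build of the authors; 32 genes had none. A gene was called detected above 3 in every sample. Ratios used a pseudocount of 1 and a mean of at least 10. Words of 31 bases were compared between transcripts. No test was run, as 1 group was described. Named genes were the 6 markers, Smad2, Smad3 and Ltf, the 30 highest genes, up to 6 of each list, list members at 3 or less in all samples or with a ratio of at least 3, members of described families and the 12 genes of widest ratio. Any other gene was named after its values were seen, as were the glycolysis, carrier and family lists. The members and the other lists were chosen with earlier results of these data known. The lists come from general knowledge of these tissues. Alternatives left out each replicate or changed the length, detection threshold, filter, pseudocount or scaling. The code was tested on simulated data. Some items are not reported here.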

Additional observations from a re-analysis of the deposited data

How the results depend on the processing

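The share of the sum of levels in the 100 highest genes was 30.8% and moved to 33.8% with the median transcript length and to 23.6% with no division by length, and that in the 10 highest moved from 11.8% to 14.5% and 8.30%. The number of genes whose highest sample was at least 2 times the lowest was 2811, and 5398 with no filter on the mean and 1691 with a mean of at least 50, where by construction more or fewer low genes were counted. Leaving out 1 replicate gave 1189 to 1831, the lowest without replicate 3, as a range over fewer samples is narrower by construction. Without genes that share at least 50% of their words it was 2467, an alternative chosen after seeing the data. Of the 30 highest genes, 21 stayed among the 30 with the median length and 21 with no division by length. The summed level of 12 of 22 lists moved by more than the spread between replicates with the median length and of 17 of 22 with no division, so levels compared between genes depend on the length used. The reads behind each value could not be recovered, so values near the floor are given without a counting error. No paired analysis was possible because only 1 group was described and no test was run.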
